A study of Homo sapiens with 59 samples.

Results

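The 10 genes described here are RNA targets of the transcription factor p53 that are widely used as readouts of its activity: CDKN1A, MDM2, TP53I3, FDXR, SESN1, BBC3, ZMAT3, RRM2B, TP53INP1 and BTG2. They were taken by symbol from a table of 60675 Ensembl genes, all 10 were found, and all 10 passed the filter on low counts among 18568 genes tested. The cells were A549, a long-used line derived from a human lung carcinoma, collected 24 h after a herbal preparation or the vehicle was added. Each of 8 preparations was extracted in 70% ethanol and used at a low, a medium and a high dose. For Coptidis Rhizoma the doses were 4.4, 22 and 110 µg/mL, and for Bupleuri Radix 7.6, 38 and 190 µg/mL. The other 6 were used at 20, 100 and 500 µg/mL. They comprise 4 single herbs, namely Zizyphi Fructus, Aconiti Lateralis Radix Preparata, Cimicifugae Rhizoma and Citri Unshius Pericarpium, and the multi-herb formulas Banhasasim-tang and Yijung-tang. Each dose had 2 libraries for Coptidis, Zizyphi and Yijung-tang, 3 for Citri, Cimicifugae and Bupleuri, and 1 for Banhasasim-tang. Aconiti had 3 libraries at the low and high dose and 2 at the medium dose, and the vehicle group had 3. The extracts are called below by the first word of their names. DMSO was the vehicle, at 0.1% by the sample labels and at 2% by the series text.

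The p53 protein is held low in unstressed cells by MDM2, a ubiquitin ligase that p53 itself induces, so that target and inhibitor form a feedback loop. Stress that stabilises p53 raises genes that stop the cell cycle, genes that promote apoptosis, and genes for redox balance, DNA repair and nucleotide supply. A549 cells are known as a line with wild-type p53 that has lost CDKN2A, the locus of the MDM2 inhibitor ARF. The p53 genotype was not examined here. CDKN2A had a median of 0 CPM (counts scaled to library size by TMM) over the 59 libraries and a highest value of 0.548 CPM. p53 is regulated mainly as a protein, which RNA levels do not show.

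RefSeq start windows (GRCh38.p14) were searched for 8 of the 10 genes. RRM2B and TP53INP1 were left out of this search, so it cannot show how close a match either gene holds. In the 250 bases before each start, the 20-base p53 consensus was searched, a palindrome that reads the same on both strands. The closest match among the 15 windows, with 2 mismatches, stood 94 to 75 bases before an internal MDM2 start, in the p53-responsive P2 promoter of the first intron, and a window that overlaps it holds the same match. A match this close was held by 0.561% of all 35116 windows searched. The next closest were a window of SESN1 and a window of FDXR, each with 3 mismatches, a closeness held by 4.36% of all windows. Each of these last 2 windows also held an exact 10-base half-site, as did 5.57% of all windows. The MDM2 and SESN1 stretches are shown because they carry the closest matches outside exons, in capitals. The FDXR match, as close as that of SESN1, lies in bases annotated as exon and is not shown. Stretches before the starts of CDKN1A and BBC3 follow, because these genes rose together at the high Coptidis dose (values below). The best matches in their windows had 5 mismatches, as close as in 64.5% of all windows, so no bases are in capitals. Bases outside these windows were not searched, so the search cannot show whether either gene has a p53 site elsewhere. Bases that the annotation places in an exon are left out, all stretches read 5′ to 3′ on the gene's strand, and a match of letters is a description only.
MDM2, chr12:68808767-68809001, + strand: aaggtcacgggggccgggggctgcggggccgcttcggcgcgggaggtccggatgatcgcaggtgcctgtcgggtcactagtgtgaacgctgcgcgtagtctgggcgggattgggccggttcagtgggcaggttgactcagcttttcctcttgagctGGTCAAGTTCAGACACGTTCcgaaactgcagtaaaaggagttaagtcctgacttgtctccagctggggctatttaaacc
SESN1, chr6:109008989-109009238, − strand: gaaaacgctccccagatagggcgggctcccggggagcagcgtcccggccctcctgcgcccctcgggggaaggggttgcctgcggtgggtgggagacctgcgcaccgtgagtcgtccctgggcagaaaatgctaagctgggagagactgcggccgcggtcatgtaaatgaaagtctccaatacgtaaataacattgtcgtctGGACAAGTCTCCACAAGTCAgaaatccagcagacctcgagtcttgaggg
CDKN1A, chr6:36678560-36678657, + strand: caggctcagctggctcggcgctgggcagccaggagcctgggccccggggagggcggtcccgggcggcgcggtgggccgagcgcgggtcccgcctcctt
BBC3, chr19:47232767-47232917, − strand: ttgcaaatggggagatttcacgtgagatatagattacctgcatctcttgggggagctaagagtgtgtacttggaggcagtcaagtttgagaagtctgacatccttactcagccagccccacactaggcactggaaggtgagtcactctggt

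Libraries held between 17214755 and 39751161 expected counts. In 4 of them, Citri high replicate 3, Citri medium replicate 3, Cimicifugae medium replicate 2 and Cimicifugae low replicate 2, antisense noncoding genes summed to 3149 to 4601 CPM, against 2375 to 3137 CPM in the other 55, so calls that changed are given with and without these 4, by gene or as a count. The highest of the 55 were the Coptidis high libraries, at 3137 and 3133 CPM. Mitochondrial ribosomal RNA made up 6.09% to 11.15% of counts in the 6 Coptidis libraries and 3.87% to 15.21% in the 3 Banhasasim-tang libraries, against 2.24% to 2.43% in vehicle. Its part in the results of these 2 extracts was not tested. The epithelial keratin KRT8 lay between 1956 and 9086 CPM and ALDH1A1, an enzyme abundant in A549, between 4560.0 and 7097 CPM, but EPCAM between 2.41 and 9.32 CPM. The lung markers NKX2-1 and SFTPC reached at most 0.0844 and 0.134 CPM. The immune markers PTPRC and CD3E peaked at 0.0488 and 0 CPM. Of the 12 markers of other cell types, COL1A1 and SNAP25 had vehicle means of 32.7 and 41.2 CPM in these cells, and the other 10 had means of at most 1.96 CPM. The summed markers of other cell types were 57.0 to 58.2 CPM at Coptidis high and 40.8 to 41.7 CPM at Aconiti medium, against 75.7 to 79.1 CPM in vehicle. The summed epithelial and A549 markers were 12803 to 12845 CPM at Coptidis high and 10645 to 11364 CPM at Aconiti medium, against 15643 to 16443 CPM in vehicle. Their part in the results was not tested.

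Per kilobase of annotated exon, which allows genes to be compared, TP53I3 was the most abundant of the 10 in vehicle, at 51.6 ± 2.8 CPM per kb (SD, n = 3). CDKN1A followed at 36.3 ± 1.3 CPM per kb. MDM2 (13.2 ± 0.2), FDXR (13.0 ± 0.5) and RRM2B (12.9 ± 0.1) CPM per kb lay within 1 SD of FDXR of each other. BTG2, ZMAT3, SESN1, BBC3 and TP53INP1 were lower, between 1.68 and 3.96 CPM per kb. Each library held between 65 and 6361 counts of each gene, the lowest for TP53INP1 and the highest for MDM2.

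**Figure D1:**
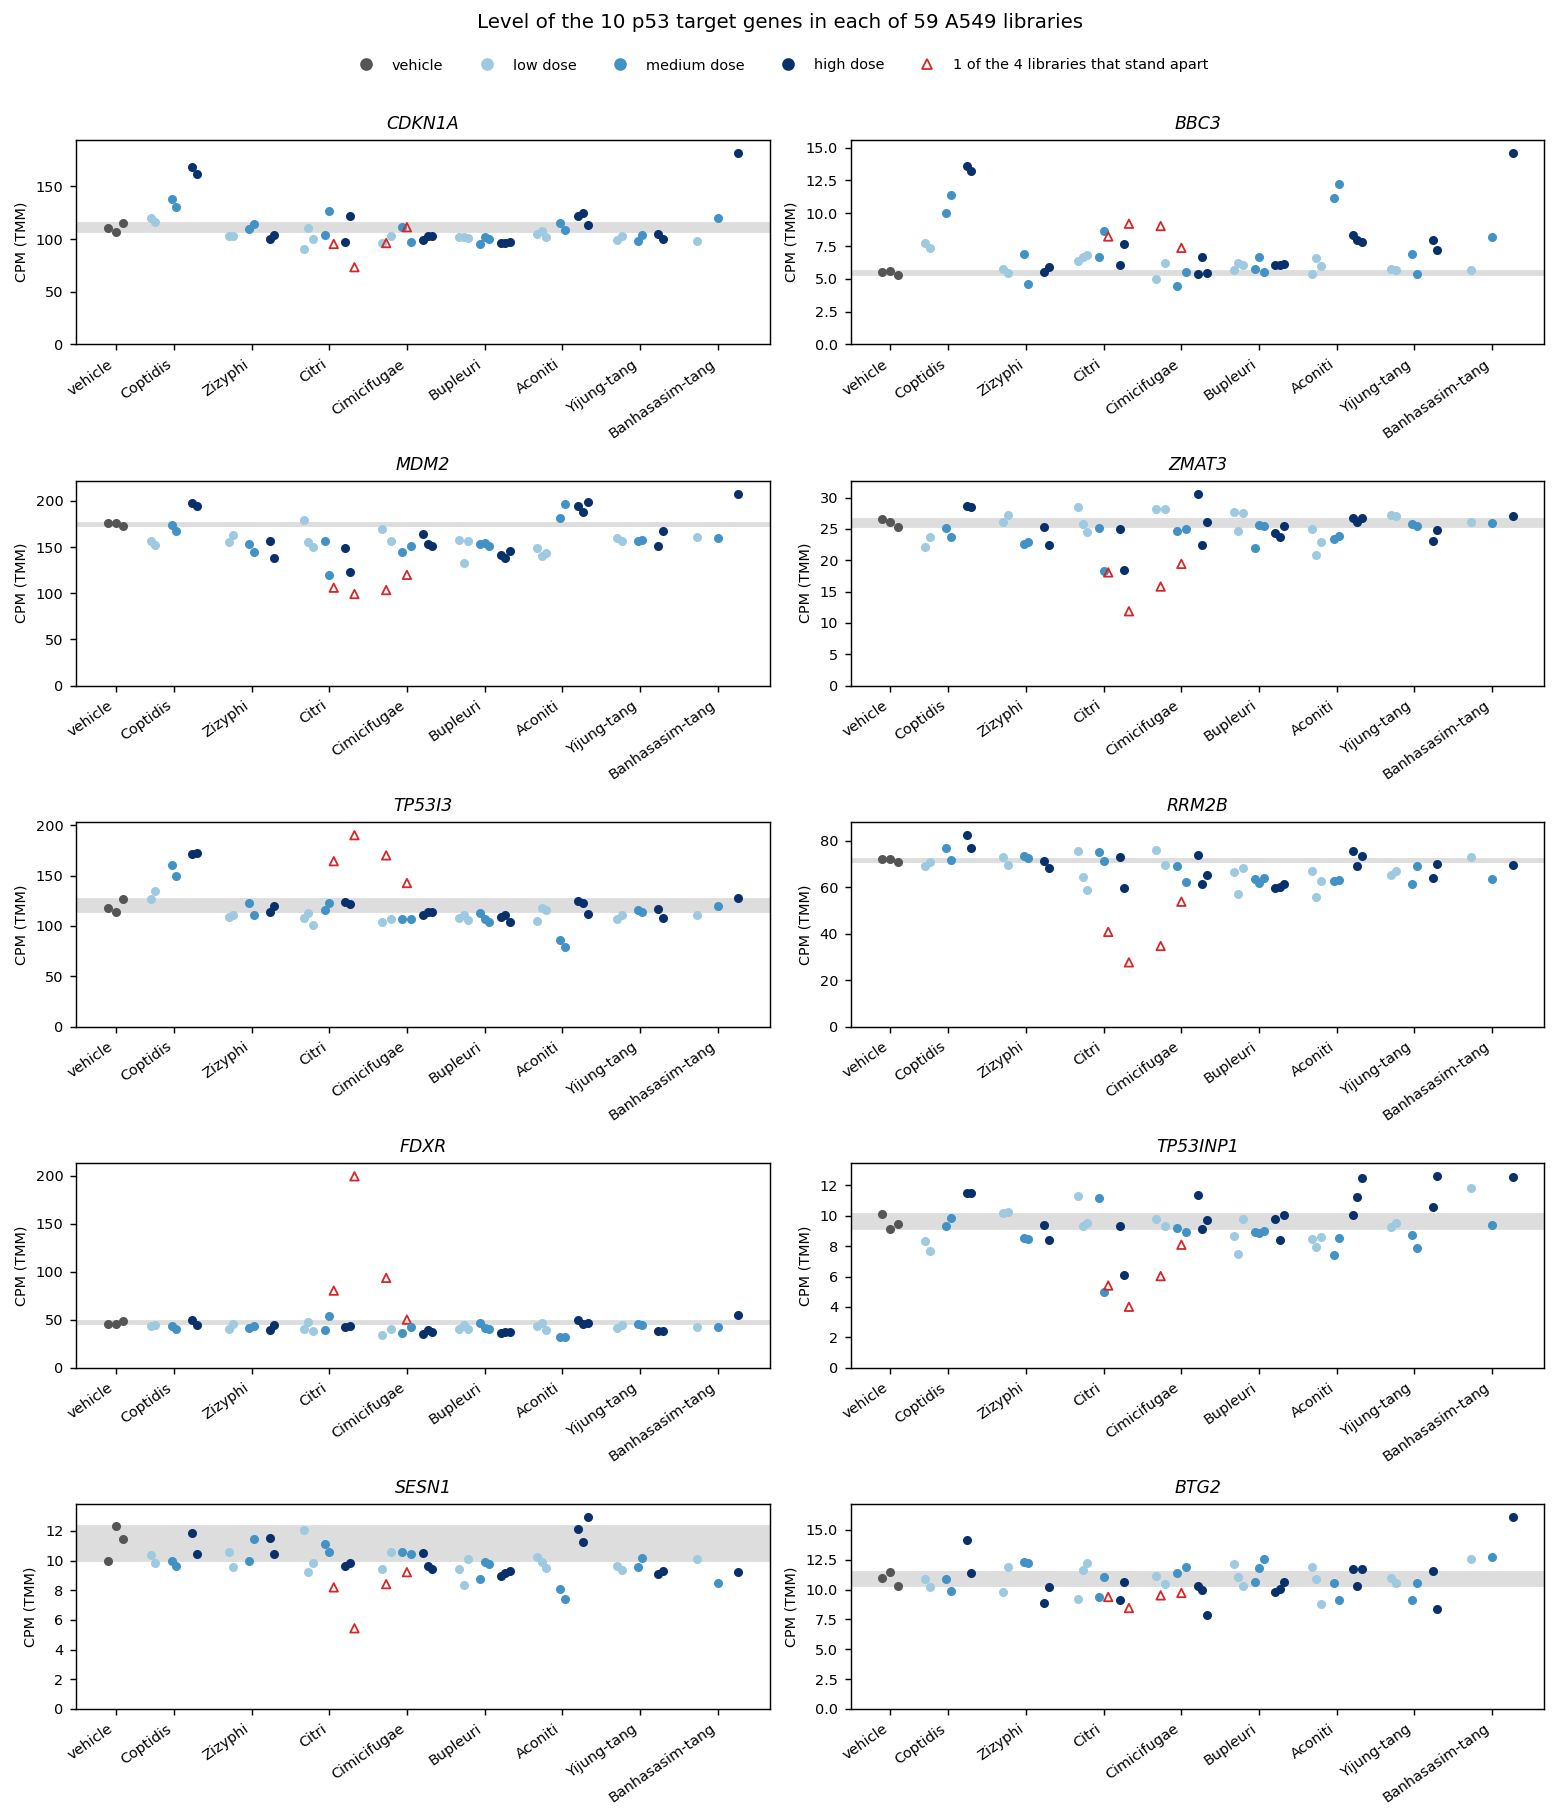
Level of each of the 10 p53 targets (vertical axis, TMM-normalized CPM, from 0) in each of 59 libraries, with vehicle at the left and then the 8 extracts, each with its low, medium and high dose from left to right. The grey band spans the 3 vehicle libraries and red triangles are the 4 libraries that stand apart; CDKN1A and BBC3 are highest at the high doses of Coptidis and Banhasasim-tang, and FDXR reaches 199.5 CPM in 1 Citri library.

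Across the 21 comparisons of a dose with vehicle, the 10 genes did not move as a block. The p53 targets were called, at an adjusted p below 0.05 in edgeR's quasi-likelihood test, in 5 comparisons: Coptidis high and medium, Citri high, and Aconiti high and medium. With all 59 libraries BBC3 had a positive log2 fold change in 21 of 21 comparisons and was called in 4. In a fit of 55 libraries, without the 4 that stand apart, its value at the medium Cimicifugae dose was -0.14 ± 0.14 (edgeR adjusted p = 0.64). SESN1 had a negative one in 20 of 21, MDM2 in 18 and RRM2B in 17, although the 3 together gave 2 calls. All 21 comparisons share the same 3 vehicle libraries, so these counts of signs are not independent of each other. Vehicle libraries also have a separate library code, and an offset of that code cannot be told apart from an effect of the extracts. By the same codes Coptidis and Zizyphi form a library set, as do Citri and Cimicifugae, Bupleuri and Aconiti, and the formulas. Comparisons of doses or extracts within a set, given below, do not use the vehicle. As these are bulk libraries, more RNA per cell and more cells with the RNA cannot be told apart.

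**Figure D2:**
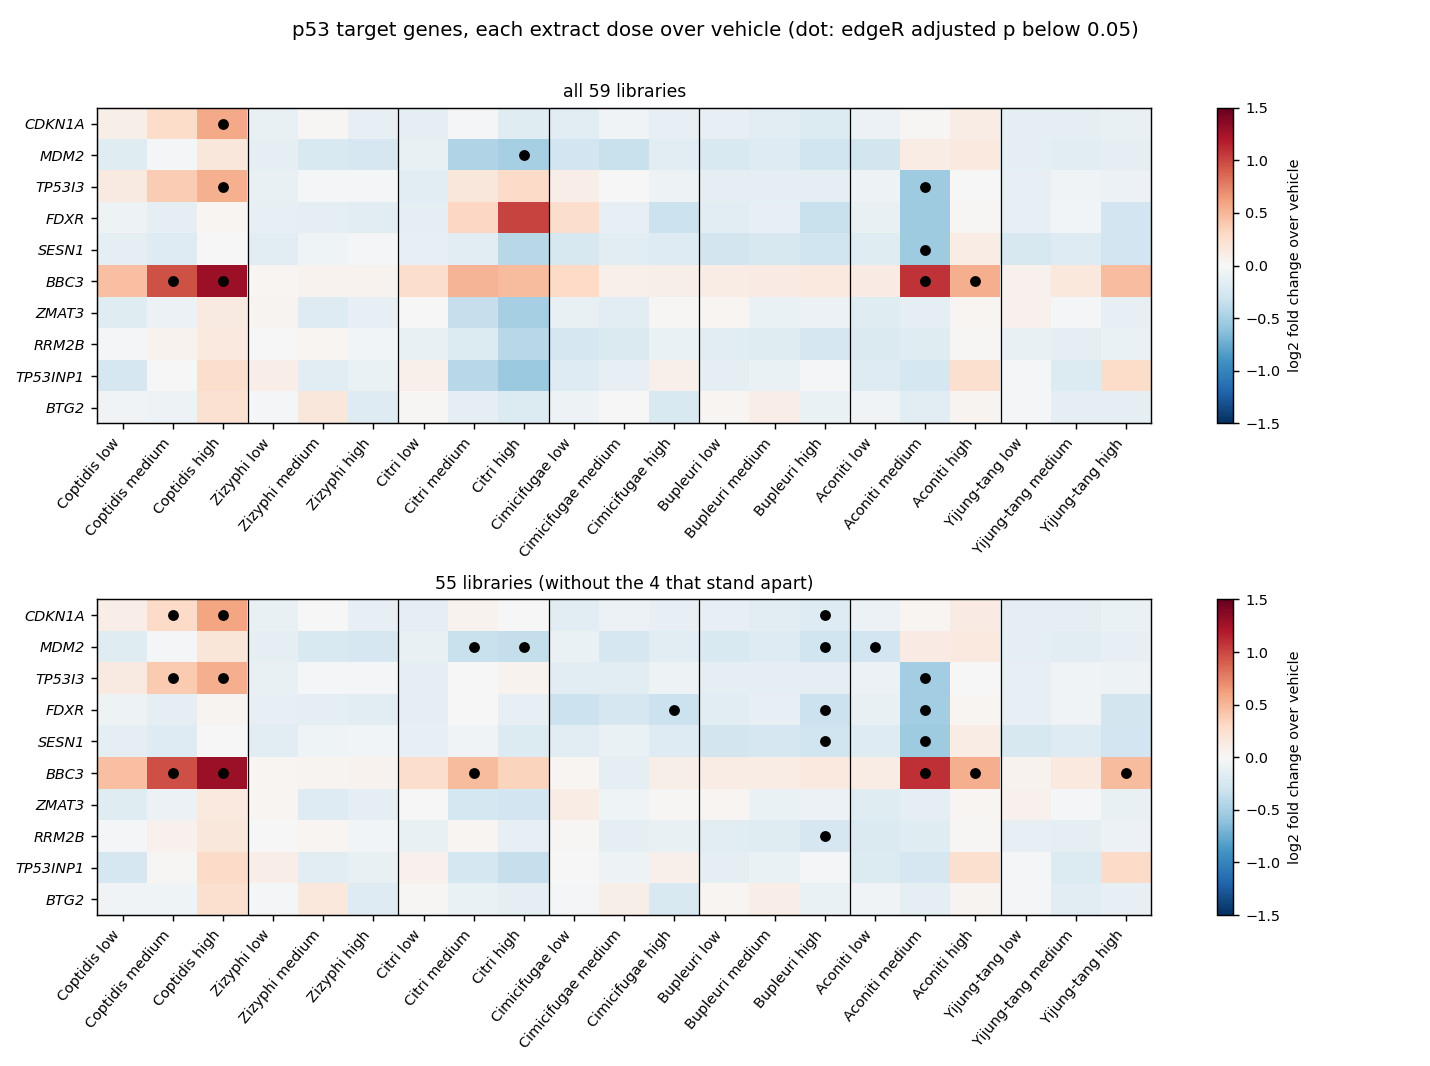
Log2 fold change over vehicle (colour) of each p53 target (rows) at each dose of the 7 extracts with replicates (columns, low to high dose), fitted with all 59 libraries (upper) and with 55 (lower). Dots mark calls; BBC3 is positive in every column of the upper panel, and Bupleuri high gains 5 lower calls in the lower one.

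The cell cycle inhibitor CDKN1A, which encodes p21, a brake on cyclin-dependent kinases (chromosome 6, 36676460 to 36687339, + strand, GRCh38), rose at the high dose of Coptidis. It had 168 and 162 CPM at that dose, against 111, 107 and 115 CPM in vehicle, and the groups did not overlap. The log2 fold change was 0.57 ± 0.11 (SE; edgeR adjusted p = 0.000181). The mean level was 110.8 CPM in vehicle, 118 CPM at the low dose, 134 CPM at the medium dose and 165 CPM at the high dose. At the medium dose the difference from vehicle was 0.28 ± 0.11 on the log2 scale (edgeR adjusted p = 0.198), and it passed the threshold without the 4 libraries that stand apart (0.28 ± 0.07, edgeR adjusted p = 0.0065). With all 59 libraries CDKN1A was called in no other of the 21 comparisons. Its level at the high Aconiti dose was 121, 125 and 114 CPM, which overlapped the vehicle. Bupleuri high had the lowest log2 fold change, -0.20 ± 0.10, with 95.8, 95.9 and 97.4 CPM, all below vehicle (edgeR adjusted p = 0.341; 0.0373 without the 4 libraries).

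BTG2, an antiproliferative cofactor of mRNA deadenylation that also restrains the cell cycle (chromosome 1, 203305491 to 203309602, + strand), was called in none of the 21 comparisons. Its log2 fold changes lay between -0.22 and 0.22. At the high Coptidis dose it had 14.2 and 11.4 CPM, against 11.0, 11.5 and 10.3 CPM in vehicle, and the groups overlapped.

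The apoptosis gene BBC3, which encodes PUMA, a BH3-only protein that neutralises the survival members of the BCL2 family (chromosome 19, 47220822 to 47232766, − strand), showed the largest called fold change over vehicle of the 10. It had 13.6 and 13.2 CPM at the high Coptidis dose, against 5.56, 5.61 and 5.33 CPM in vehicle. The log2 fold change was 1.28 ± 0.17 (SE; edgeR adjusted p = 6.64e-07). At the medium Coptidis dose it had 10.0 and 11.4 CPM (0.96 ± 0.18, edgeR adjusted p = 0.000495). At the low dose it had 7.77 and 7.33 CPM, above every vehicle library but not called. Aconiti raised it in another order of doses. The medium Aconiti dose gave 11.2 and 12.3 CPM (1.09 ± 0.17, edgeR adjusted p = 7.07e-06) and the high dose 8.35, 7.97 and 7.79 CPM (0.55 ± 0.16, edgeR adjusted p = 0.0358). The call at the high Aconiti dose was lost when any 1 of its 3 libraries or of the 3 vehicle libraries was left out, with edgeR adjusted p between 0.0638 and 0.117. The library counts of BBC3 ran from 93 to 381, so its fold changes rest on fewer counts than those of CDKN1A.

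TP53INP1, a stress-induced p53 cofactor linked to apoptosis and autophagy (chromosome 8, − strand), was called over vehicle at no dose. Its highest fold change was 0.28 on the log2 scale at the high dose of Yijung-tang, with 10.5 and 12.6 CPM, against 10.1, 9.10 and 9.42 CPM in vehicle. ZMAT3, a zinc finger protein that binds RNA and acts in p53-dependent tumour suppression (chromosome 3, 179017223 to 179072279, − strand), was also called at no dose over vehicle. At the high Coptidis dose it had 28.6 and 28.4 CPM, against 26.5, 26.1 and 25.3 CPM in vehicle, a log2 fold change of 0.13 ± 0.18 (edgeR adjusted p = 0.729).

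MDM2, the ubiquitin ligase that limits p53 (chromosome 12, 68808176 to 68850686, + strand), was not called at the high Coptidis dose, where CDKN1A, TP53I3 and BBC3 rose. It had 197 and 195 CPM at the high Coptidis dose, against 176, 176 and 172 CPM in vehicle, which did not overlap. The log2 fold change of 0.17 ± 0.14 was not called (edgeR adjusted p = 0.518). The low Coptidis dose had 157 and 152 CPM and the medium dose 174 and 168 CPM, so that the low dose lay below every vehicle library. MDM2 fell at the high dose of Citri, with 149, 123 and 99.2 CPM (-0.50 ± 0.12, edgeR adjusted p = 0.0354). The 99.2 CPM came from 1 of the 4 libraries that stand apart. Without those 4 the change was -0.36 ± 0.08 (edgeR adjusted p = 0.0216). It was not called without that 1 library alone (-0.36, edgeR adjusted p = 0.294), nor without any 1 vehicle library (edgeR adjusted p between 0.0969 and 0.124).

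TP53I3, a quinone oxidoreductase known as PIG3 and linked to p53-driven oxidative stress (chromosome 2, 24077433 to 24085861, − strand), moved in opposite directions in 2 extracts. It rose at the high Coptidis dose, with 172 and 173 CPM, against 118, 114 and 126 CPM in vehicle (0.53 ± 0.15, edgeR adjusted p = 0.0133). It fell at the medium Aconiti dose, with 85.9 and 78.7 CPM (-0.53 ± 0.15, edgeR adjusted p = 0.0111). In both extracts the groups were clear of the vehicle range, and the Aconiti high dose, with 124, 123 and 112 CPM, overlapped it. With 1 Coptidis high library left out, the remaining one gave 0.54 to 0.56 with edgeR adjusted p of 0.072 to 0.0807. With 1 Aconiti medium library left out, the change lay between -0.59 and -0.46, with edgeR adjusted p of 0.0505 and 0.161.

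FDXR, the ferredoxin reductase that feeds electrons to mitochondrial P450 enzymes and iron-sulfur cluster assembly (chromosome 17, 74862497 to 74873031, − strand), was called over vehicle at no dose with all 59 libraries. The standard error of its fold change over vehicle was 0.36 for a group of 2 libraries, and 0.10 without the 4 libraries. At the medium Aconiti dose it had 32.4 and 32.2 CPM, against 46.0, 45.3 and 48.6 CPM in vehicle, well apart. That change was -0.53 ± 0.36 with all libraries (edgeR adjusted p = 0.375) and -0.52 ± 0.10 without the 4 (edgeR adjusted p = 7.34e-05), beside 32.8% of all genes called (16.3% lower). At the high Coptidis dose FDXR had 50.3 and 44.6 CPM, which overlapped the vehicle.

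SESN1, a sestrin that restrains mTORC1 and peroxide stress (chromosome 6, 108986437 to 109094819, − strand), fell at the medium Aconiti dose. It had 8.07 and 7.40 CPM, against 9.94, 12.3 and 11.4 CPM in vehicle (-0.54 ± 0.15, edgeR adjusted p = 0.00803). The vehicle values spread more than those of the other genes, and without vehicle replicate 2 the change was -0.45 (edgeR adjusted p = 0.0597). Without Aconiti medium replicate 2 it was -0.47 (edgeR adjusted p = 0.139). RRM2B, the p53-inducible small subunit of ribonucleotide reductase (chromosome 8, − strand), was called over vehicle at no dose with all 59 libraries, and at the high Bupleuri dose in the fit of 55. Its highest group mean was 79.6 CPM at Coptidis high, from libraries of 82.3 and 76.9 CPM, against 72.1, 72.0 and 70.8 CPM in vehicle (0.15 ± 0.23, edgeR adjusted p = 0.762).

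At the high Coptidis dose the count was therefore 3 of 10 genes higher (CDKN1A, TP53I3 and BBC3) and none lower, beside 12.6% of all tested genes called and 6.41% called higher. The median log2 fold change of the 10 was 0.20, against -0.01 over all genes tested, and 9 of 10 were positive. In the fit of 55 libraries 3 of 10 were again called higher, beside 27.9% of all genes (14.1% higher). At the medium dose 1 of 10 was called with all 59 libraries, BBC3, beside 3.27% of all genes (1.76% higher). With the 4 libraries left out there were 3 (CDKN1A, TP53I3 and BBC3), beside 12.4% (6.17% higher). The low dose had 0 calls among the 10 in edgeR and in DESeq2, beside 0.447% of all genes called in edgeR. An unadjusted edgeR p below 0.05 was found for 1 of the 10, with no share of all genes computed for that rule.

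High against low dose of Coptidis, which share a library set, gave 2 higher calls, beside 2.31% of all genes (0.932% higher). CDKN1A rose by 0.48 ± 0.12 (edgeR adjusted p = 0.0185) and BBC3 by 0.83 ± 0.19 (edgeR adjusted p = 0.00929), with every high-dose library above every low-dose one. All 10 genes had positive log2 fold changes here, with a median of 0.33, against -0.01 over all genes tested. MDM2 had 197 and 195 CPM at the high dose, against 157 and 152 CPM at the low dose, without overlap. Its fold change of 0.35 ± 0.15 was not called with all libraries (edgeR adjusted p = 0.343) but was without the 4 (0.36 ± 0.09, edgeR adjusted p = 0.00804), as was TP53I3 (0.41 ± 0.06, edgeR adjusted p = 1.61e-05). That made 4 calls, beside 9.05% of all genes (4.5% higher). Leaving out any 1 of the 4 Coptidis libraries gave changes of 0.47 to 0.52 for CDKN1A and 0.80 to 0.89 for BBC3. Neither kept its call in these fits, which leave 1 library in a group. The share of all genes called in them is not given.

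Zizyphi served as the other extract of the Coptidis set, and none of its 3 doses had a call among the 10 genes in edgeR or DESeq2, or an unadjusted edgeR p below 0.05. With all 59 libraries edgeR called 0% of all genes at each Zizyphi dose. At the high doses, Coptidis exceeded Zizyphi for 3 of 10 genes, beside 8.12% of all genes called (4.1% higher). CDKN1A had 168 and 162 CPM with Coptidis, against 99.8 and 103 CPM with Zizyphi (0.70 ± 0.12, edgeR adjusted p = 7.45e-05). BBC3 had 13.6 and 13.2 CPM with Coptidis, against 5.54 and 5.87 CPM with Zizyphi (1.23 ± 0.19, edgeR adjusted p = 1.66e-05). TP53I3 had 172 and 173 CPM with Coptidis, against 114 and 120.1 CPM with Zizyphi (0.56 ± 0.17, edgeR adjusted p = 0.0279). The TP53I3 call was lost when any 1 of these 4 libraries was left out (edgeR adjusted p between 0.102 and 0.165). In the fit of 55 libraries MDM2 (0.43 ± 0.09, edgeR adjusted p = 0.000521) and BTG2 (0.43 ± 0.15, edgeR adjusted p = 0.0332) were called higher too, which made 5 calls beside 20.5% of all genes (10.4% higher). The high-over-low change of Coptidis minus that of Zizyphi was positive for all 10 genes, with a median of 0.45. The signs and median over all genes are not given here, so this count has no background beside it. No gene of the 10 passed this test of the difference with all libraries, beside 0.355% of all genes, the closest being CDKN1A at 0.50 ± 0.17 (edgeR adjusted p = 0.377). The unadjusted edgeR p was 0.00567 for CDKN1A, 0.00608 for BBC3, 0.0414 for TP53INP1 and 0.0419 for MDM2, and DESeq2 called 0. With the 4 libraries left out CDKN1A, MDM2, TP53I3 and BBC3 passed it, beside 2.67% of all genes (1.17% higher).

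For Aconiti the calls did not follow the order of doses. At the medium dose 1 of 10 was higher (BBC3) and 2 were lower (TP53I3 and SESN1), beside 17.5% of all genes called, 8.23% higher and 9.28% lower. Within the Aconiti set, the medium dose also differed from the high dose in these 3 genes, beside 7.78% of all genes (3.14% higher and 4.64% lower). TP53I3 had 85.9 and 78.7 CPM at the medium dose, against 124, 123 and 112 CPM at the high dose (-0.54 ± 0.15, edgeR adjusted p = 0.021). SESN1 had 8.07 and 7.40 CPM at the medium dose, against 12.1, 11.3 and 12.9 CPM at the high dose (-0.64 ± 0.15, edgeR adjusted p = 0.00319). BBC3 had 11.2 and 12.3 CPM at the medium dose, against 8.35, 7.97 and 7.79 CPM at the high dose (0.54 ± 0.17, edgeR adjusted p = 0.0369). Without Aconiti medium replicate 2 none of the 3 was called (edgeR adjusted p between 0.101 and 0.303). The BBC3 call was lost without any 1 of the 5 libraries, and that of TP53I3 without any 1 of 4, Aconiti high replicate 3 being the exception. Without the 4 libraries that stand apart, FDXR and TP53INP1 were called lower as well, which made 5 calls beside 20.3% of all genes.

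At the high Aconiti dose, BBC3 was the 1 gene called over vehicle, beside 4.65% of all genes (2.56% higher). All 10 had positive log2 fold changes with a median of 0.07, but the signs and median over all genes are not given here. Against the low dose, MDM2 was the 1 gene called, beside 3.29% of all genes (1.56% higher). It had 194, 188 and 199 CPM at the high dose, against 149, 140.0 and 143 CPM at the low dose (0.43 ± 0.12, edgeR adjusted p = 0.0459), and the groups were far apart. This call was lost when any 1 of the 6 libraries was left out (edgeR adjusted p between 0.0842 and 0.164). In the fit of 55 libraries, CDKN1A, SESN1, BBC3 and RRM2B were called higher too, which made 5 calls beside 9.71% of all genes (5.03% higher). The low Aconiti dose had 0 calls over vehicle in edgeR and in DESeq2, beside 0% of all genes called in edgeR. An unadjusted edgeR p below 0.05 was found for 1 of the 10, with no share of all genes computed for that rule. MDM2 was lower there in the fit of 55 libraries (-0.29 ± 0.07, edgeR adjusted p = 0.0352), beside 2.15% of all genes.

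Bupleuri, the other extract of the Aconiti set, had 0 calls over vehicle at its 3 doses with all libraries, in edgeR and in DESeq2. At the high dose 3 of the 10 had an unadjusted edgeR p below 0.05, and 3.36% of all genes were called, against 0.00539% at the medium and 0% at the low dose. In the fit of 55 libraries 5 of 10 were lower at the high Bupleuri dose, namely CDKN1A, MDM2, FDXR, SESN1 and RRM2B, beside 14.3% of all genes (7.09% lower). MDM2 had 141, 138 and 146 CPM there, all below the 3 vehicle libraries (-0.30 ± 0.08, edgeR adjusted p = 0.0053 without the 4). Set against Aconiti at the high dose, all 10 genes had negative log2 fold changes for Bupleuri, with a median of -0.29. The signs and median over all genes are not given here, so this count has no background beside it. With all libraries 0 of the 10 were called, beside 1.33% of all genes. The closest was MDM2, with 141, 138 and 146 CPM with Bupleuri, against 194, 188 and 199 CPM with Aconiti (-0.45 ± 0.12, edgeR adjusted p = 0.0618). DESeq2 called 2 genes, MDM2 (adjusted p = 0.0198) and CDKN1A (adjusted p = 0.0388), beside 2.31% of all genes, and edgeR gave 4 an unadjusted p below 0.05. In the fit of 55 libraries 6 of 10 were called lower, beside 5.22% of all genes (2.17% lower). The high doses of these extracts were 190 and 500 µg/mL, so the doses differ.

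In the Citri and Cimicifugae set, the calls of FDXR, TP53INP1 and ZMAT3 were lost without the 4 libraries that stand apart. FDXR had 42.1, 43.2 and 199.5 CPM at the high Citri dose, against 40.2, 47.6 and 38.8 CPM at the low Citri dose. The last value of the high dose was far from the other 2, and those 2 overlapped the low dose. The fold change was 1.16 ± 0.32 (edgeR adjusted p = 0.0459) with all libraries and 0.01 ± 0.10 (edgeR adjusted p = 0.975) without the 4. In edgeR it was the 1 gene of the 10 called, beside 3.54% of all genes (3.12% higher), and 6 had an unadjusted p below 0.05. DESeq2 called 5 of the 10, beside 11.4% of all genes. The call was also lost without any 1 low-dose library (edgeR adjusted p between 0.0713 and 0.195). Against Cimicifugae at the high dose, FDXR was called higher with Citri (1.34 ± 0.32, edgeR adjusted p = 0.0171). TP53INP1 (-0.63 ± 0.20, edgeR adjusted p = 0.047) and ZMAT3 (-0.51 ± 0.16, edgeR adjusted p = 0.0472) were called lower, beside 7.67% of all genes (6.26% higher and 1.41% lower). These 3 were not called in the fit of 55 libraries (edgeR adjusted p 0.27, 0.189 and 0.136), where 2.49% of all genes were. At the high Citri dose MDM2 was the 1 gene that edgeR called over vehicle, beside 4.42% of all genes (0.905% lower), and likewise in the fit of 55 libraries, beside 1.45% (0.573% lower). With all libraries DESeq2 called 5 of the 10 there, 2 higher and 3 lower, beside 12.6% of all genes, and 8 had an unadjusted edgeR p below 0.05. The medium and low Citri doses had 0 calls in edgeR and in DESeq2, beside 0% and 0.00539% of all genes called in edgeR. At these doses 4 and 0 of the 10 had an unadjusted edgeR p below 0.05. The share of all genes with an unadjusted p below 0.05 was not computed, so the unadjusted counts have no background beside them. In the fit of 55 libraries MDM2 was lower (-0.34 ± 0.08, edgeR adjusted p = 0.0283) and BBC3 higher (0.48 ± 0.13, edgeR adjusted p = 0.0397) at the medium dose, beside 2.81% of all genes.

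Citri minus Cimicifugae, each high over low, was called for 3 of the 10 (TP53I3, FDXR and TP53INP1), beside 7.02% of all genes and none in the fit of 55 libraries.

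Within those 4 libraries the 10 genes split in a shared pattern. The share of all genes that split in the same way was not computed, so the counts below have no background and cannot show a trait of the p53 targets. TP53I3 was above both other libraries of its group in 4 of 4, with log2 ratios to their mean from 0.42 to 0.68. FDXR was above in 4 of 4, with log2 ratios from 0.35 to 2.23 and 50.2 to 199.5 CPM. MDM2, SESN1, ZMAT3 and RRM2B were below in 4 of 4. RRM2B had log2 ratios from -1.26 to -0.29 and was the lowest of the 10 in 3 of the 4. BBC3 was above in 3 and between the others in 1. CDKN1A was above in 1, below in 2 and between in 1. Antisense noncoding genes, without TMM scaling, summed to 4601 CPM in the library where FDXR was 199.5 CPM and to 3149 CPM where it was 50.2 CPM. Their part in these levels was not tested.

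**Figure D3:**
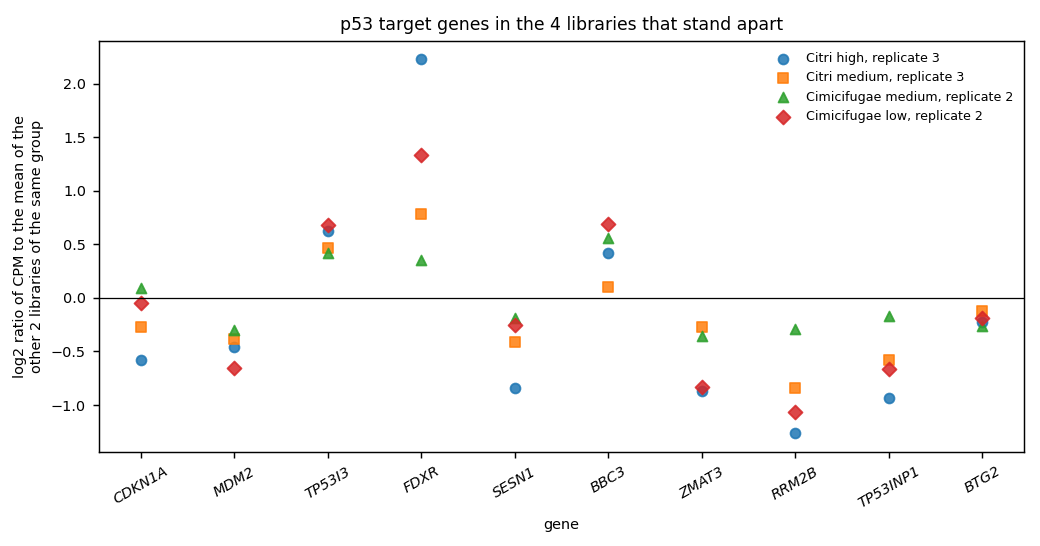
Log2 ratio of CPM in each of the 4 libraries that stand apart (symbols) to the mean of the other 2 libraries of the same group, for each p53 target (horizontal axis). TP53I3 and FDXR lie above 0 in all 4, and MDM2, SESN1, ZMAT3 and RRM2B below 0 in all 4. The share of all genes that do so was not computed.

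Yijung-tang had 0 calls among the 10 genes at its 3 doses and between its high and low dose with all libraries, in edgeR and in DESeq2, beside 1.37% of all genes at the high dose, 0.0108% at the medium dose, 0% at the low dose and 0.431% between high and low. At the high dose 1 gene, BBC3, had an unadjusted edgeR p below 0.05. BBC3 had 7.94 and 7.21 CPM at the high dose, above every vehicle library (0.46 ± 0.18, edgeR adjusted p = 0.252; 0.0188 without the 4, beside 9.11% of all genes). Cimicifugae had 0 calls over vehicle at its 3 doses with all libraries, in edgeR and in DESeq2, beside 0.377% of all genes at the high dose, 0.0269% at the medium and 0% at the low dose. At these doses 0, 1 and 1 of the 10 had an unadjusted edgeR p below 0.05. At the high Cimicifugae dose FDXR was lower in the fit of 55 libraries (-0.32 ± 0.09, edgeR adjusted p = 0.0312), beside 3.72% of all genes. Banhasasim-tang, with 1 library per dose, has no test. At its high dose CDKN1A had 182 CPM and BBC3 had 14.6 CPM, the highest value of each in the series. Their log2 folds over the vehicle mean were 0.71 and 1.40. BTG2 had 16.1 CPM (log2 fold 0.55) and MDM2 207 CPM (log2 fold 0.25), each also the highest of the 59 libraries. TP53I3, with 127 CPM, stood just above the vehicle range of 114 to 126 CPM, and FDXR, ZMAT3 and TP53INP1 were also above their vehicle ranges. SESN1 was below its vehicle range, with 9.23 CPM against 9.94 to 12.3 CPM (log2 fold -0.27). RRM2B was below as well, with 69.4 CPM against 70.8 to 72.1 CPM (log2 fold -0.05). The share of all genes outside their vehicle range in this 1 library was not computed, so these positions have no background beside them. CDKN1A and BBC3, 2 of the 10, were past 1.5-fold higher, as were 11.8% of all tested genes. At the medium dose CDKN1A had 119.8 CPM and BBC3 8.22 CPM, and at the low dose 97.8 and 5.69 CPM. None of the 10 was past 1.5-fold higher at the medium or low dose, beside 7.23% and 6.48% of all genes.

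The high dose of Coptidis and the medium dose of Aconiti, given side by side over the same vehicle, both had BBC3 called higher. CDKN1A changed by 0.57 ± 0.11 with Coptidis and by 0.02 ± 0.11 with Aconiti. In the direct comparison, chosen after the values were seen and between library sets, Coptidis high was above Aconiti medium for TP53I3 by 1.06 ± 0.17 (edgeR adjusted p = 1.54e-05). It was above for CDKN1A by 0.56 ± 0.12 (edgeR adjusted p = 0.00122) and for SESN1 by 0.53 ± 0.16 (edgeR adjusted p = 0.0259). These 3 calls stood beside 11.0% of all genes (6.3% higher), and the SESN1 call was lost without any 1 of the 4 libraries compared. FDXR, RRM2B, TP53INP1 and BTG2 were called higher too in the fit of 55 libraries, which made 7 calls beside 26.4% of all genes (13.3% higher). For BBC3 the difference was 0.19 ± 0.18 (edgeR adjusted p = 0.603) and for MDM2 0.05 ± 0.15 (edgeR adjusted p = 0.901). The extracts and doses, 110 and 100 µg/mL, differ.

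**Figure D4:**
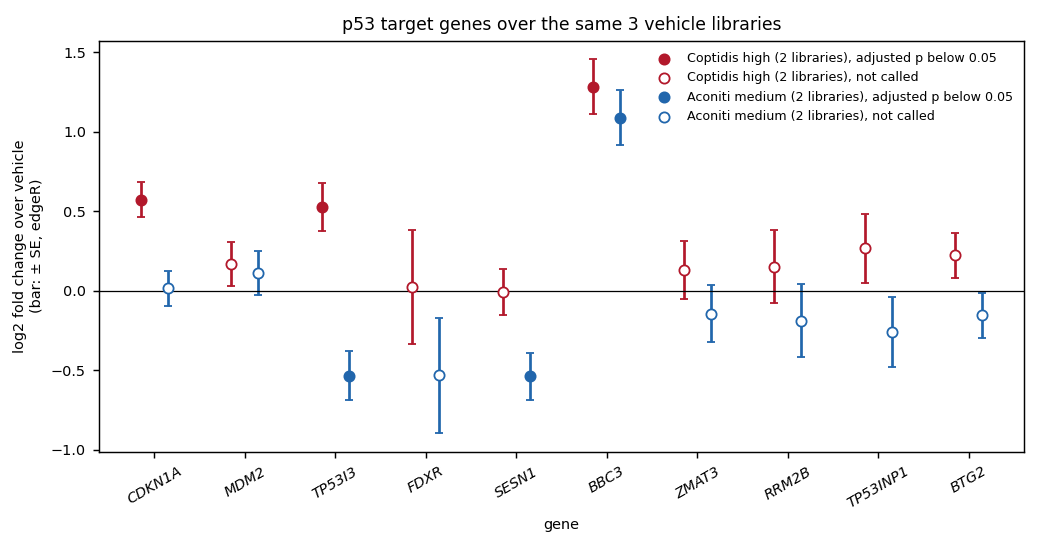
Log2 fold change over vehicle (vertical axis, bars ± SE from edgeR) of each p53 target at the high Coptidis dose (red) and the medium Aconiti dose (blue), over the same 3 vehicle libraries. Filled points are called; BBC3 is high in both, and TP53I3 lies at 0.53 with Coptidis and -0.53 with Aconiti.

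MDM4, the MDM2 relative that inhibits p53, had 56.3 ± 0.4 CPM at Coptidis high, against 49.95 ± 1.33 CPM in vehicle (SD, n = 2 and 3), and was not called (0.17 ± 0.17, edgeR adjusted p = 0.61). At Aconiti medium MDM4 changed by 0.09 ± 0.17 (edgeR adjusted p = 0.813). Of 20 genes of p53 regulation, 3 were higher and 1 lower at Coptidis high, among them the kinase HIPK2 (0.69 ± 0.19) and the p53 inhibitor PPP1R13L (0.54 ± 0.16). Of all tested genes 6.41% were called higher and 6.14% lower there. At Aconiti medium 4 of the 20 were higher and 2 lower, beside 8.23% and 9.28% of all genes. The deacetylase SIRT1 changed by 1.08 ± 0.17 and the p53 relative TP63 by -1.64 ± 0.27 at that dose.

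Of 58 other p53 targets tested, 14 were higher and 3 lower at Coptidis high, and 14 higher and 8 lower at Aconiti medium, beside the shares of all genes given above. With all 59 libraries the arrest and apoptosis genes that were called were higher in both. The cyclin gene CCNG1, however, was called lower in the fit of 55 libraries at Coptidis high (-0.21 ± 0.07, edgeR adjusted p = 0.0241) and at Aconiti medium (-0.43 ± 0.07, edgeR adjusted p = 6.6e-06). APAF1, a core of the apoptosome, was called lower in that fit at Aconiti medium (-0.40 ± 0.12, edgeR adjusted p = 0.0102). At Coptidis high the growth arrest gene GADD45A changed by 1.10 ± 0.14 and the kinase PLK3 by 0.75 ± 0.14, 2 of 10 arrest genes. Among 17 apoptosis genes, the BH3-only gene PMAIP1 (0.98 ± 0.17), the death receptor TNFRSF10B (0.88 ± 0.16), EDA2R (0.76 ± 0.20) and FAS (0.47 ± 0.16) were higher. GADD45A (1.00 ± 0.14), PLK3 (0.94 ± 0.13), PMAIP1 (0.95 ± 0.17) and TNFRSF10B (0.96 ± 0.16) were higher at Aconiti medium as well. There BTG1 (0.63 ± 0.11), TNFRSF10A (0.76 ± 0.09), AEN (0.55 ± 0.10) and BAK1 (0.38 ± 0.11) joined them.

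Of 7 DNA repair targets, the damage sensor XPC was higher (0.41 ± 0.08) and the replication clamp PCNA lower (-0.61 ± 0.09) at Coptidis high. PCNA was the 1 called at Aconiti medium with all libraries, at -0.46 ± 0.09. POLH (-0.41 ± 0.09) and RPS27L (-0.39 ± 0.11) were called lower and XPC higher (0.21 ± 0.06) as well in the fit of 55 libraries. Among 10 metabolic and autophagy targets, the sestrin SESN2 was higher in both (1.97 ± 0.17 with Coptidis, 1.78 ± 0.17 with Aconiti), while SESN1 changed by -0.01 ± 0.15 and -0.54 ± 0.15. The proline pathway enzyme ALDH4A1 was lower in both (-0.68 ± 0.09 and -1.24 ± 0.09). Among 14 secreted and other targets, the stress cytokine GDF15 (1.18 ± 0.22 and 1.60 ± 0.22) was higher in both. TP53I11 was lower in both, at -0.49 ± 0.12 with Coptidis and -1.18 ± 0.12 with Aconiti.

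**Figure D5:**
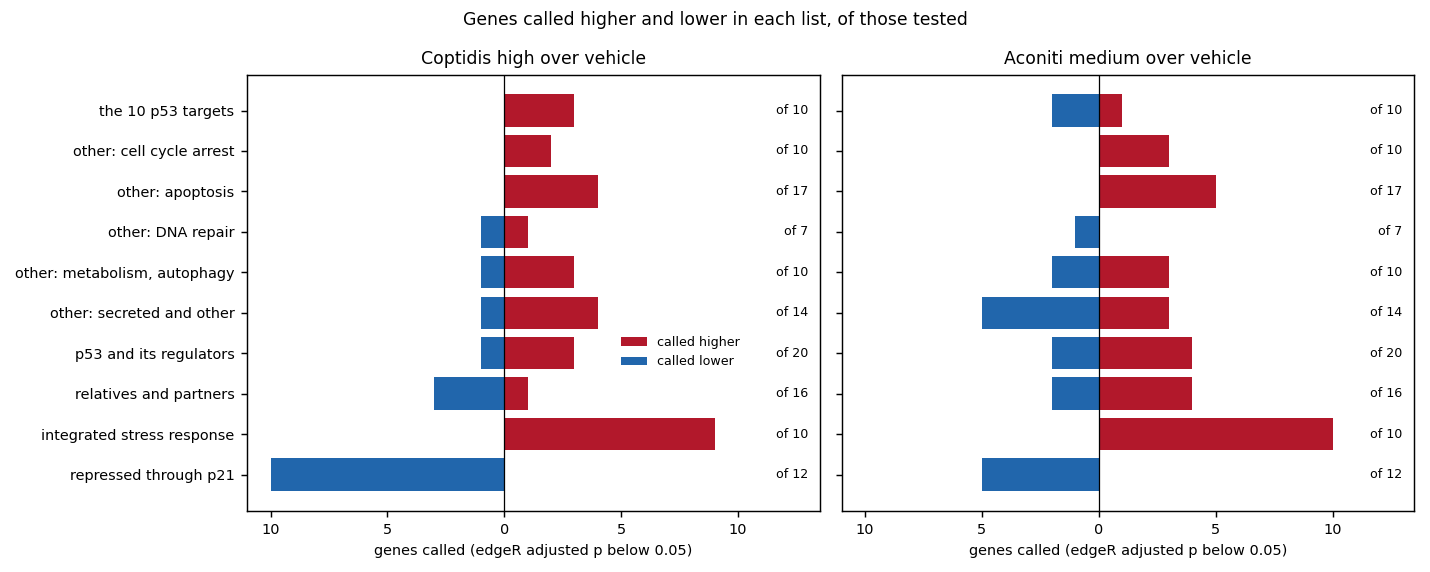
Number of genes called higher (red, right of 0) and lower (blue, left of 0) in each list at Coptidis high and Aconiti medium over vehicle, with the number tested at the right of each row. All 10 stress response genes are higher at Aconiti medium, beside 8.23% of all genes. At Coptidis high 10 of 12 genes repressed through p21 are lower, beside 6.14% of all genes.

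Genes of the integrated stress response, which ATF4 drives and which share SESN2 with the p53 targets, were higher in both settings. At Coptidis high 9 of 10 were called, beside 12.6% of all genes, with a median log2 fold change of 1.3 for the list. TRIB3 reached 2.06 ± 0.18 and DDIT3 1.76 ± 0.24. At Aconiti medium 10 of 10 were called, beside 17.5% of all genes. PPP1R15A changed by 2.62 ± 0.20 and ATF3 by 2.44 ± 0.23. At Coptidis low, where none of the 10 p53 targets was called, 6 of 10 stress response genes were higher, beside 0.302% of all genes. The part of this program in the levels of BBC3, CDKN1A and the other p53 targets named above was not tested. Cell cycle genes known to be repressed through p21 moved the other way. At Coptidis high 10 of 12 were lower, beside 6.14% of all genes. CCNE2 changed by -0.94 ± 0.22, PLK1 by -0.81 ± 0.14 and CDK1 by -0.78 ± 0.11. At Aconiti medium, where CDKN1A changed by 0.02 ± 0.11 and was not called, 5 of 12 were lower, beside 9.28% of all genes. CDK1 changed by -0.59 ± 0.11 and CCNB1 by -0.53 ± 0.09 there.

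Among relatives and partners of the 10 genes, the ribonucleotide reductase subunits RRM2 (-0.94 ± 0.20) and RRM1 (-0.54 ± 0.09) were lower at Coptidis high, while the p53-inducible RRM2B changed by 0.15 ± 0.23. FDX1, a ferredoxin that FDXR reduces, was lower (-0.67 ± 0.14) there. At Aconiti medium the survival gene MCL1 was higher (1.04 ± 0.13), as was BCL2L1 (0.40 ± 0.10), and the sestrin SESN3 was lower (-1.76 ± 0.37). Of 6 tested markers of other cell types, 1 was higher (GFAP) and 2 lower at Coptidis high, and 1 higher and 3 lower at Aconiti medium. Of 9 epithelial and A549 markers, 3 were lower at Coptidis high and 6 at Aconiti medium, where CDH1, the epithelial cadherin, changed by -2.54 ± 0.28. Of all tested genes, 6.41% were called higher and 6.14% lower at Coptidis high, and 8.23% and 9.28% at Aconiti medium.

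Over the 25 group means of log2 CPM, which share libraries with all the comparisons above, CDKN1A was most like BBC3 among the 10, with Pearson r = 0.834. The next closest pair was ZMAT3 and TP53INP1 (r = 0.814). CDKN1A and MDM2 had r = 0.711, and TP53I3 and FDXR r = 0.621. Some of these values changed when the 4 libraries were left out. FDXR and ZMAT3 had r = -0.453 with them and 0.188 without them, and CDKN1A and FDXR r = 0.187 with them and 0.621 without them. Among all tested genes of at least 5 CPM, the 5 most like CDKN1A were CLGN (r = 0.927), JPX (0.919), LARP6 (0.915), GPD1L (0.909) and WARS1 (0.904). The 5 most like MDM2 were HAPSTR1 (r = 0.931), ELK4 (0.91), N4BP2 (0.907), KDM5B (0.9) and PPFIBP1 (0.892). No gene was among the 5 of both.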

How the data were processed

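RNA from A549 cells was sequenced as 100-base pairs from strand-specific mRNA libraries, per the labels' protocols. Per the submitters' processing notes, RSEM 1.3.3 and STAR 2.7.3a were used on GRCh38, with Trim Galore 0.6.5 and with FastQC 0.11.9. The authors deposited RSEM expected counts for 60675 genes, which were rounded to whole numbers here. Of the table's columns, 59 belong to these samples and 210 others were not used. Totals ran from 17214755 to 39751161 counts per library, and counting error is largest for the genes of fewest counts, TP53INP1, SESN1 and BBC3.

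Groups came from the sample labels. Genes passing filterByExpr (minimum 10, total 15) numbered 18568. edgeR 4.0.16 (TMM, quasi-likelihood, all 59 libraries, 25 group means) tested 32 comparisons and 3 differences between extracts. Coptidis high over Aconiti medium was tested besides these, after the values were seen. Adjusted p-values are Benjamini-Hochberg over all tested genes of a comparison, called below 0.05, and each SE is the log2 fold change divided by the root of F. Levels are CPM. Banhasasim-tang, with 1 library per dose, got log2 ratios of CPM with a prior count of 2. DESeq2 1.42.0, another normalization, no filter, fewer libraries, a replicate block and left-out libraries were alternatives. The labels do not say whether replicates were separate cultures, so p-values measure the spread between these libraries, which may be technical.

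The members, the lists and the 4 libraries that stand apart were chosen with earlier results of these data known. All members are described. From the other lists, MDM4 is always named, otherwise called genes, at most the 6 largest changes per comparison and list. Some genes of these lists are counted but not reported here. Genes like CDKN1A or MDM2 are the 5 each of highest Pearson r. In counts simulated for the high Coptidis dose, 95 of 100 genes changed 2-fold and 44 of 100 changed 1.5-fold were called. The changed genes had means above 100 counts, and every gene was given the spread of the fitted trend. The simulation therefore cannot show how often a change is called in genes that spread more than the trend.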

Additional observations from a re-analysis of the deposited data

Results flagged for a closer look

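The change from low to high dose differed between Citri and Cimicifugae, in a direct test of the difference with all 59 libraries, for 3 of the 10 genes, beside 7.02% of all genes. The difference, Citri minus Cimicifugae on the log2 scale, was 1.75 ± 0.45 for FDXR (SE; edgeR adjusted p = 0.0363), 0.62 ± 0.19 for TP53I3 (edgeR adjusted p = 0.0462) and -0.90 ± 0.28 for TP53INP1 (edgeR adjusted p = 0.0473). Without the 4 libraries that stand apart the differences were 0.01 for FDXR, 0.11 for TP53I3 and -0.49 for TP53INP1, and edgeR called none of them.

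The high Coptidis dose and the medium Aconiti dose differed, in a direct test chosen after the values were seen, by 1.06 ± 0.17 for TP53I3 (edgeR adjusted p = 1.54e-05), 0.56 ± 0.12 for CDKN1A (edgeR adjusted p = 0.00122) and 0.53 ± 0.16 for SESN1 (edgeR adjusted p = 0.0259), beside 11.0% of all genes. The SESN1 call was lost without any 1 of the 4 libraries compared and with no filter on low counts (edgeR adjusted p between 0.0558 and 0.222). Without the 4 libraries that stand apart, 7 of the 10 genes were called, beside 26.4% of all genes. The extracts are in different library sets, so a difference between sets and a difference between extracts cannot be told apart.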

How the results depend on the processing

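Among the counts of genes called, 321 values under an alternative stayed within 1.5 times the main count and 105 did not. Among single values, 534 kept direction and side of the threshold, 106 lost the call, 81 gained it and 0 reversed. CDKN1A and BBC3 at Coptidis high over vehicle and over Zizyphi, and BBC3 at Coptidis medium and Aconiti medium, were called under every alternative run. Another normalization (RLE) changed no count of members.

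Counts of the 10 genes called are given as alternative against main, with the share of all genes called in the alternative fit. With only the libraries compared, over vehicle, they were 7 against 3 at Coptidis high (44% of all genes), 3 against 1 at medium (26.7%) and 2 against 0 at low (13.9%). They were 0 against 1 at Citri high (0%), 6, 4 and 1 against 0 at Bupleuri high, medium and low (26.2%, 12.5% and 12.2%), and 2 against 0 at Yijung-tang high (18.5%). For Aconiti they were 2 against 1 at high (22.9%), 5 against 3 at medium (42%) and 2 against 0 at low (7.28%). High over low gave 7 against 2 for Coptidis (27.3%), 0 against 1 for Citri (0%) and 7 against 1 for Aconiti (12.6%). Between extracts they were 8 against 3 for Coptidis over Zizyphi (33.3%), 0 against 3 for Citri over Cimicifugae (0.0356%), 6 against 0 for Bupleuri over Aconiti (8.98%), and 6 against 3 for Aconiti medium over high (27.2%). The differences between extracts gave 6 against 0 (9.7%), 0 against 3 (0%) and 3 against 0 (3.77%), in that order of pairs. In these fits the share of all genes called changed in the same direction as the members' count. Other p53 targets were 29 higher and 6 lower against 14 and 3 at Coptidis high, and 24 higher and 17 lower against 14 and 8 at Aconiti medium.

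Without the 4 libraries the counts over vehicle were 3 against 1 at Coptidis medium (12.4% of all genes). They were 2 against 0 at Citri medium (2.81%) and 5 against 0 at Bupleuri high (14.3%). Cimicifugae high (3.72%), Aconiti low (2.15%) and Yijung-tang high (9.11%) each had 1 against 0. High over low gave 4 against 2 for Coptidis (9.05%), 0 against 1 for Citri (0.851%) and 5 against 1 for Aconiti (9.71%). Between extracts they were 5 against 3 (20.5%), 0 against 3 (2.49%) and 6 against 0 (5.22%). For Aconiti medium over high they were 5 against 3 (20.3%). The differences between extracts gave 4 against 0 (2.67%), 0 against 3 (0.142%) and 1 against 0 (1.64%). Other targets lower at Aconiti medium were 14 against 8, beside 16.3% of all genes lower. With no filter, counts were 5 against 1 for Citri high over vehicle (5.69% of all genes) and over low (5.59%). They were 1 against 0 at Citri medium (1.74%) and 1 against 2 for Coptidis high over low (0.772%). Cimicifugae high over low (1.21%) and Bupleuri over Aconiti (0.691%) gave 1 against 0, and Citri minus Cimicifugae 5 against 3 (7.77%). DESeq2 gave 5 against 1 for Citri high over vehicle (12.6% of all genes) and over low (11.4%). It gave 2 against 0 for Bupleuri over Aconiti (2.31%) and 5 against 3 for Citri minus Cimicifugae (15.8%). The cause of these changes was not tested.

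The replicate block gave 2 against 1 for Citri high over vehicle (5.12% of all genes) and 3 against 1 over low (4.29%). For Bupleuri over Aconiti it gave 1 against 0 (1.48%). In 0 of 17 comparisons with 3 or more shared numbers did every same-numbered pair correlate above 0.1, so the numbers are not taken as pairs.

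Leaving out 1 library at a time, in 31 fits, gave 0 to 7 calls for Citri high over vehicle, over low and over Cimicifugae high, 0 to 6 for Citri minus Cimicifugae, 1 to 3 for Aconiti medium over vehicle, 0 to 2 over Aconiti high, and 0 to 0 for Aconiti high over vehicle and over low and for Coptidis high over low. Coptidis high over vehicle gave 2 to 3 and over Zizyphi 2 to 2. Other targets lower at Aconiti medium were 5 to 7. The share of all genes called in these fits is not given, so these counts have no background beside them. The libraries of the remaining groups were not left out in turn. A group left with 1 library is assumed to vary like the others.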
